A study of Homo sapiens with 8 samples.

Results

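The collagen chain genes are the genes whose symbol reads COL, a number, A and a number. The array platform's annotation gave 1 such symbol to 73 probes of 43 genes, among 20046 genes named by a probe with 1 symbol, and the brightest probe stood for each gene. By class, 11 genes encode fibrillar chains, 9 encode basement membrane chains and 23 encode other chains. Each of the 8 samples of H1, a human embryonic stem cell line, was hybridised to 1 Illumina expression array. All cells grew on Matrigel in mTeSR medium and received a lentivirus with polybrene. The lentivirus was OE-NANOG, OE-OCT4 or OE-SOX2, meant to overexpress that pluripotency factor, or EF1a-control, a control virus named for the EF1a promoter, with 2 arrays in each of the 4 groups. How long after transduction the cells were collected is not stated in the labels. Whether the 2 replicates of a group were separate cultures is not stated either, so every p-value reflects a spread between arrays that may be technical.

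Collagens are secreted proteins in which 3 chains wind into a triple helix, and most helices need chains from particular partner genes. Fibrillar collagens such as types I, II, III, V and XI assemble into banded fibrils that bear tension. Basement membrane collagens, chiefly the type IV network, form the thin sheet on which epithelial cells and the early epiblast rest, and Matrigel is itself a basement membrane extract. The other classes decorate fibrils, form beaded filaments or hexagonal lattices, or span the cell membrane.

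Sequence upstream of 4 sets of chains that differed between groups in the values further on is shown here. COL4A1 and COL4A2 are transcribed away from each other, and the 126 bases between their starts serve both genes. The 250 bases upstream of COL11A1, COL12A1 and COL4A5 follow, each written 5′ to 3′ along the gene's own strand. Capitals mark each CCAAT box (CCAAT) and GC box (GGGCGG) on either strand.
COL4A1-COL4A2: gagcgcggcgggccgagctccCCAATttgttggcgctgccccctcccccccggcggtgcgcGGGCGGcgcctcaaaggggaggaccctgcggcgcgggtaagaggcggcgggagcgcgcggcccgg
COL11A1: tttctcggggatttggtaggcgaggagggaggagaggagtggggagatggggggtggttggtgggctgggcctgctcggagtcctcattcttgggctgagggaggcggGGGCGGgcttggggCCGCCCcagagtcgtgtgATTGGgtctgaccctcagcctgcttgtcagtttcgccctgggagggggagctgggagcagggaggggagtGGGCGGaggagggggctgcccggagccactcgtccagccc
COL12A1: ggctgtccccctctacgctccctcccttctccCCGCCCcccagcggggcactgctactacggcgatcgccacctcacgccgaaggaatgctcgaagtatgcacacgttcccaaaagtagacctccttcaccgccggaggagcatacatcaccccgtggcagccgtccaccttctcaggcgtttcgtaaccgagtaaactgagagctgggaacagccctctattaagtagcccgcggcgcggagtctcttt
COL4A5: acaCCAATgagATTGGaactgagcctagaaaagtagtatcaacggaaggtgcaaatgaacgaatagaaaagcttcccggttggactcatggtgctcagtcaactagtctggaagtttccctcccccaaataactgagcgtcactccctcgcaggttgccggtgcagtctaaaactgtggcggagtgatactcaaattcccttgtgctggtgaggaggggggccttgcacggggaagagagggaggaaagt
The sequences are RefSeq's, on GRCh38.p14. The COL4A1-COL4A2 region is chr13:110307158-110307283, written along the plus strand, which is the strand of COL4A2. The region upstream of COL11A1 is chr1:103108523-103108772 on the minus strand. That of COL12A1 is chr6:75206054-75206303 on the minus strand, and that of COL4A5 is chrX:108439588-108439837 on the plus strand. COL4A1-COL4A2 held 1 CCAAT box and 1 GC box, COL11A1 held 1 and 3, COL12A1 held 0 and 1, and COL4A5 held 2 and 0. Among 34943 promoter windows of 126 bases, 21.1% held a CCAAT box and 34.5% a GC box. Among windows of 250 bases the shares were 32.0% and 42.5%. The 4 sequences held 0 matches, on either strand, to TATAAA (the TATA box), to ACAAAG or ACAATG (core letters bound by SOX proteins) or to ATGCAAAT (the octamer bound by POU proteins). These letters occurred in 10.8%, 13.7%, 9.3% and 1.63% of the 250-base windows, and a missing match says only that they are not in these windows. RefSeq promoter entries were at hand for 31 of the 43 genes and for 7 of the 11 described in full further on.

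The deposited intensities, a linear brightness of the scanned probe, ran over 86.3 to 22884 with a median of 117.1 on every array. A probe was tested when it exceeded 123.7, the 60th percentile of all values, on at least 2 arrays, which left 12436 genes. Replicate arrays correlated across these genes at 0.996 for NANOG, 0.991 for OCT4, 0.969 for SOX2 and 0.988 for control. The SOX2 arrays stood apart from each other, with 306 genes more than 1 log2 unit apart between them, against 0 for NANOG, 42 for OCT4 and 44 for control. For none of the factors was the brightest probe of its gene called higher under its virus. POU5F1, which encodes OCT4, read 1793 and 1501 in OCT4-labelled cells and 3447 and 2833 in control cells. SOX2 read 678 and 1071 in SOX2-labelled cells and 1272 and 1587 in control cells. NANOG read 347 and 387 in NANOG-labelled cells and 491 and 358 in control cells. Where these probes lie relative to the transduced sequence is not known here, so they do not check the labels, and the groups are named by label throughout.

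Of the 43 collagen genes, 31 passed the filter on low values: 9 of 11 fibrillar, 6 of 9 basement membrane and 16 of 23 other genes. The 12 that did not were COL4A3, COL4A4, COL5A3, COL6A6, COL9A2, COL13A1, COL15A1, COL19A1, COL21A1, COL24A1, COL25A1 and COL28A1, whose 17 probes read 90.7 to 138. COL17A1 had no probe. Of the 31, 20 exceeded 123.7 on all 8 arrays, and 5 did so on only 2 to 4 arrays. A dim probe can also be a poor probe, so these readings do not show that a transcript was missing.

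By count, collagen genes were called most often where SOX2-labelled cells were compared. The comparisons with the largest shares of all genes called, NANOG against SOX2 and SOX2 against control, are among these. In limma, with Benjamini-Hochberg adjustment over all 12436 genes and a threshold of 0.05, SOX2-labelled cells differed from control in 8 of 31 collagen genes, 7 higher and 1 lower. That is 25.8%, beside 11.1% of all genes, of which 6.09% were higher and 5.03% lower. NANOG-labelled cells differed from control in 2 of 31, 1 higher and 1 lower, beside 3.67% of all genes (2.79% higher, 0.885% lower). OCT4-labelled cells differed from control in 1 of 31, which was higher, beside 0.281% of all genes (0.217% higher, 0.0643% lower). Between factors, NANOG against SOX2 gave 8 (1 higher, 7 lower), or 25.8%, beside 17.7% of all genes (8.82% higher, 8.92% lower). NANOG against OCT4 gave 6 (2 higher, 4 lower), or 19.4%, beside 7.16% (4.33% higher, 2.83% lower). OCT4 against SOX2 gave 9 (3 higher, 6 lower), or 29.0%, beside 6.9% (2.99% higher, 3.91% lower). The F test over the 4 groups called 10 of 31, or 32.3%, beside 15.7% of all genes. This order depends on the fit: array quality weights gave 14 calls for NANOG against OCT4 and 5 for SOX2 against control, and fits of only the 2 groups compared gave 14 and 1. With 31 genes, each share moves by over 3 percentage points per gene, and the 3 comparisons against control share the control arrays.

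**Figure D1:**
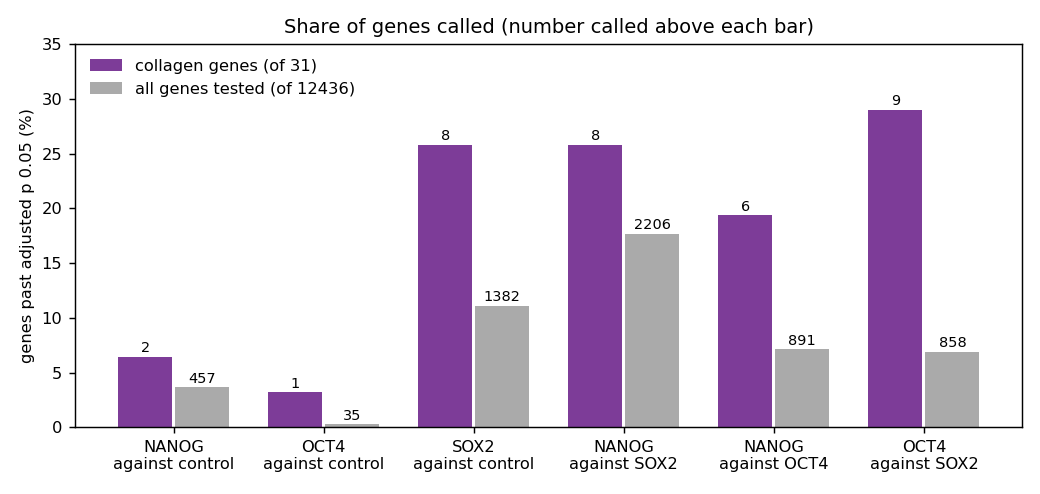
Percent of genes called in either direction (limma, adjusted p under 0.05) in each of the 6 comparisons, for the 31 measured collagen genes and all 12436 genes tested. The collagen bar reaches 25.8% for SOX2 against control, where all genes reach 11.1%.

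Leaving out 1 of the 8 arrays moved these counts, and it moved the counts over all genes widely too, so the shifts are not particular to collagen genes. SOX2 against control gave 15 calls without SOX2 replicate 1 and 8 without SOX2 replicate 2, with a range of 2 to 15 over all 8 omissions. The ranges were 0 to 6 for NANOG against control, 1 to 2 for OCT4 against control, 3 to 15 for NANOG against SOX2, 1 to 13 for NANOG against OCT4 and 4 to 16 for OCT4 against SOX2. Of the 34 calls in all, 9 were kept whichever array was left out. Leaving out SOX2 replicate 1 ended 0 of the 34 and leaving out SOX2 replicate 2 ended 4, while NANOG replicate 1 or 2 ended 17 each.

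**Figure D2:**
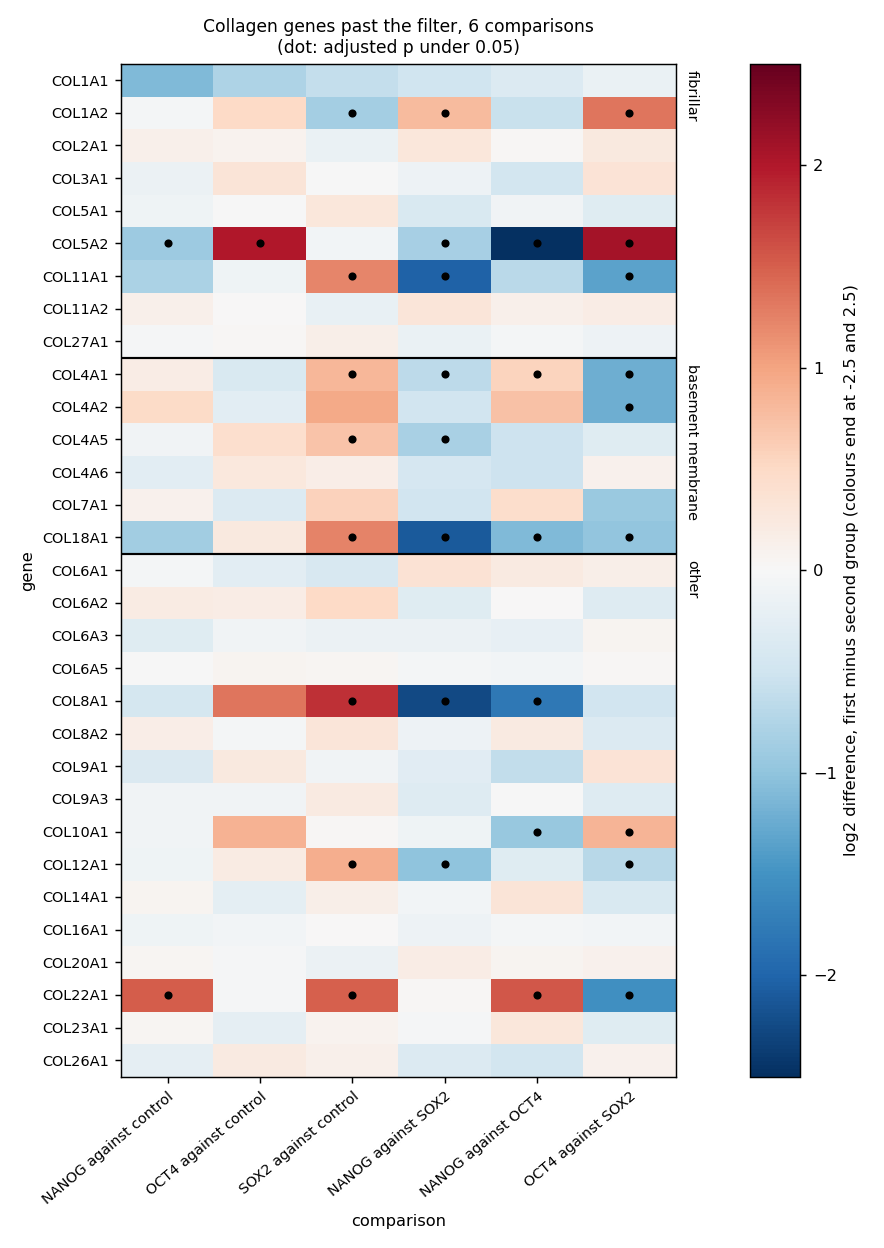
Log2 difference (colour) of the 31 measured collagen genes in the 6 comparisons, first-named group minus second, with a dot where the adjusted p was under 0.05. The basement membrane block is positive throughout for SOX2 against control and negative throughout for NANOG against SOX2.

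Basement membrane chains read higher in SOX2-labelled cells than in control. All 6 measured genes of this class had a log2 difference above 0, as did 6306 of all 12436 genes. Of the 6, 3 passed the test as higher (COL4A1, COL4A5 and COL18A1) and 0 as lower, beside 6.09% and 5.03% of all genes. With only the SOX2 and control arrays in the limma fit, none of the 3 passed (adjusted p = 0.0771, 0.114 and 0.117 in that order). The class median was 0.78, beside 0.0044 over all genes. By array, the class median relative to the control mean was 0.58 and 0.88 in SOX2-labelled cells and -0.081 and 0.081 in control cells. Against control, 0 of the 6 were called in NANOG-labelled cells and 0 in OCT4-labelled cells; at an unadjusted p under 0.05 the counts were 1 and 2, beside 16.8% of all genes for NANOG and 7.59% for OCT4. In bulk RNA, more cells of a type and more RNA per cell cannot be told apart.

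COL4A1, which encodes a chain of the type IV network found in nearly all basement membranes, read 1354 and 1198 in NANOG-labelled cells, 883 and 870 in OCT4-labelled cells, 2075 and 1896 in SOX2-labelled cells, and 1052 and 1210 in control cells. Both SOX2 arrays lay above every other array and both OCT4 arrays lay below every other. The log2 difference was 0.84 for SOX2 against control (SE 0.13, 1.79-fold, adjusted p = 0.00653). It was -1.22 for OCT4 against SOX2 (2.33-fold, adjusted p = 0.00162), -0.66 for NANOG against SOX2 (adjusted p = 0.00967) and 0.56 for NANOG against OCT4 (adjusted p = 0.0349). In the order OCT4, control, NANOG and SOX2, OCT4 and control did not pass the test against each other (log2 difference -0.38, adjusted p = 0.446), nor did NANOG and control (0.18, adjusted p = 0.552). The OCT4 against SOX2 call was kept under every omission and setting tried. Without control replicate 1, SOX2 against control gave 0.73 (adjusted p = 0.056). NANOG against SOX2 was no longer called without NANOG replicate 1 or 2 (adjusted p up to 0.102), and NANOG against OCT4 without any 1 NANOG or OCT4 array (up to 0.301).

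COL4A2, the neighbouring gene that supplies the partner chain of the same helix, read 235 and 221 in NANOG-labelled cells, 160 and 147 in OCT4-labelled cells, 224 and 412 in SOX2-labelled cells, and 185 and 168 in control cells. Both SOX2 arrays were above both control arrays, but they lay far apart from each other. Its log2 difference was 0.96 for SOX2 against control (SE 0.28, adjusted p = 0.0636), which did not pass, and -1.23 for OCT4 against SOX2 (adjusted p = 0.0367), which did. The OCT4 against SOX2 call ended when any 1 control, NANOG or OCT4 array was left out (adjusted p up to 0.194). That call also ended with only the OCT4 and SOX2 arrays in the fit and without background correction. The genes on either side of the 126 shared bases both read lowest on the OCT4 arrays, and COL4A1 alone of the pair passed the test for SOX2 against control.

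COL4A5, a type IV chain of specialised basement membranes such as that of the kidney glomerulus, read 379 and 357 in NANOG-labelled cells, 505 and 511 in OCT4-labelled cells, 610 and 618 in SOX2-labelled cells, and 351 and 432 in control cells. The SOX2 arrays were the 2 highest and the OCT4 arrays came next, with no overlap between OCT4 and control. The log2 difference was 0.72 for SOX2 against control (SE 0.13, adjusted p = 0.0135) and -0.81 for NANOG against SOX2 (adjusted p = 0.00481). OCT4 against control, at 0.42, did not pass (adjusted p = 0.399). Without control replicate 1 the first fell to 0.55 (adjusted p = 0.0855), and without NANOG replicate 2 the second was -0.76 (adjusted p = 0.0612). A second, dimmer COL4A5 probe gave 0.32 for SOX2 against control, which did not pass over all probes (adjusted p = 0.243). COL4A6, its partner chain and head-to-head neighbour with 379 bases between their starts, read 133 and 132 in NANOG-labelled cells, 166 and 178 in OCT4-labelled cells, 132 and 206 in SOX2-labelled cells, and 146 and 155 in control cells. Its SOX2 arrays spanned the whole range of the 8 arrays, and it passed no comparison.

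COL18A1, a proteoglycan-like basement membrane collagen whose end fragment is endostatin, read 353 and 349 in NANOG-labelled cells, 731 and 686 in OCT4-labelled cells, 1273 and 1463 in SOX2-labelled cells, and 462 and 798 in control cells. Every SOX2 array was above, and every NANOG array below, all arrays of the other groups, while the control arrays spanned the OCT4 values. The log2 difference was 1.23 for SOX2 against control (SE 0.24, 2.35-fold, adjusted p = 0.0162) and -2.10 for NANOG against SOX2 (4.28-fold, adjusted p = 0.000887). Both calls were kept with any 1 array left out. With only the SOX2 and control arrays in the fit, SOX2 against control no longer passed (adjusted p = 0.117). NANOG against OCT4 gave -1.11 (adjusted p = 0.0287) and OCT4 against SOX2 gave -0.99 (adjusted p = 0.0449). The first of these ended without any 1 NANOG or OCT4 array (adjusted p up to 0.205), and the second without any 1 of those or SOX2 replicate 2 (up to 0.21). NANOG against control, at -0.87, did not pass (adjusted p = 0.0976). COL7A1, the anchoring fibril chain of skin, was called in 0 comparisons and is taken up among the replicate gaps in the closing part.

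The fibrillar chains called against control did not share a direction. Against control, SOX2-labelled cells had 1 of 9 higher (COL11A1) and 1 lower (COL1A2), beside 6.09% and 5.03% of all genes. The class median there was -0.076. OCT4-labelled cells had 1 higher (COL5A2), beside 0.217% of all genes, and a median of 0.031. NANOG-labelled cells had 1 lower (COL5A2), beside 0.885% of all genes, and a median of -0.11. The median over all genes lay between -0.017 and 0.0044 in these comparisons. Of the 9 fibrillar genes, 7 lay below 0 in NANOG-labelled cells, 3 in OCT4-labelled cells and 6 in SOX2-labelled cells. Of all 12436 genes, 6666, 6104 and 6130 did so in that order. At an unadjusted p under 0.05 in limma, the fibrillar genes gave 3 for NANOG, 3 for OCT4 and 2 for SOX2. The shares of all genes were 16.8%, 7.59% and 26.6%. The 3 for NANOG, COL1A1, COL5A2 and COL11A1, all read lower than control.

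COL5A2, a chain of the type V collagen that starts and sizes type I fibrils, read 156 and 162 in NANOG-labelled cells, 1047 and 814 in OCT4-labelled cells, 266 and 238 in SOX2-labelled cells, and 255 and 271 in control cells. The OCT4 arrays were the 2 highest, the NANOG arrays the 2 lowest, and SOX2 overlapped control. It was the 1 collagen gene called in OCT4-labelled cells against control (log2 difference 2.00, SE 0.15, adjusted p = 0.00311), and this call was kept under every omission and setting. NANOG against control gave -0.92 (1.89-fold, adjusted p = 0.0159) and NANOG against OCT4 gave -2.91 (7.53-fold, adjusted p = 6.73e-05). OCT4 against SOX2 gave 2.07 (adjusted p = 0.000324) and NANOG against SOX2 gave -0.84 (adjusted p = 0.00685). SOX2 against control, at -0.08, did not pass (adjusted p = 0.791). The NANOG against control call ended without control replicate 2 (adjusted p = 0.148), NANOG replicate 1 (0.216) or NANOG replicate 2 (0.14), and NANOG against SOX2 without either NANOG array (up to 0.076). Its partner COL5A1 read 229 and 196 in NANOG-labelled cells, 230 and 216 in OCT4-labelled cells, 258 and 270 in SOX2-labelled cells, and 199 and 256 in control cells. Its SOX2 arrays were just above all others, the other groups overlapped, and COL5A1 passed no comparison.

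**Figure D3:**
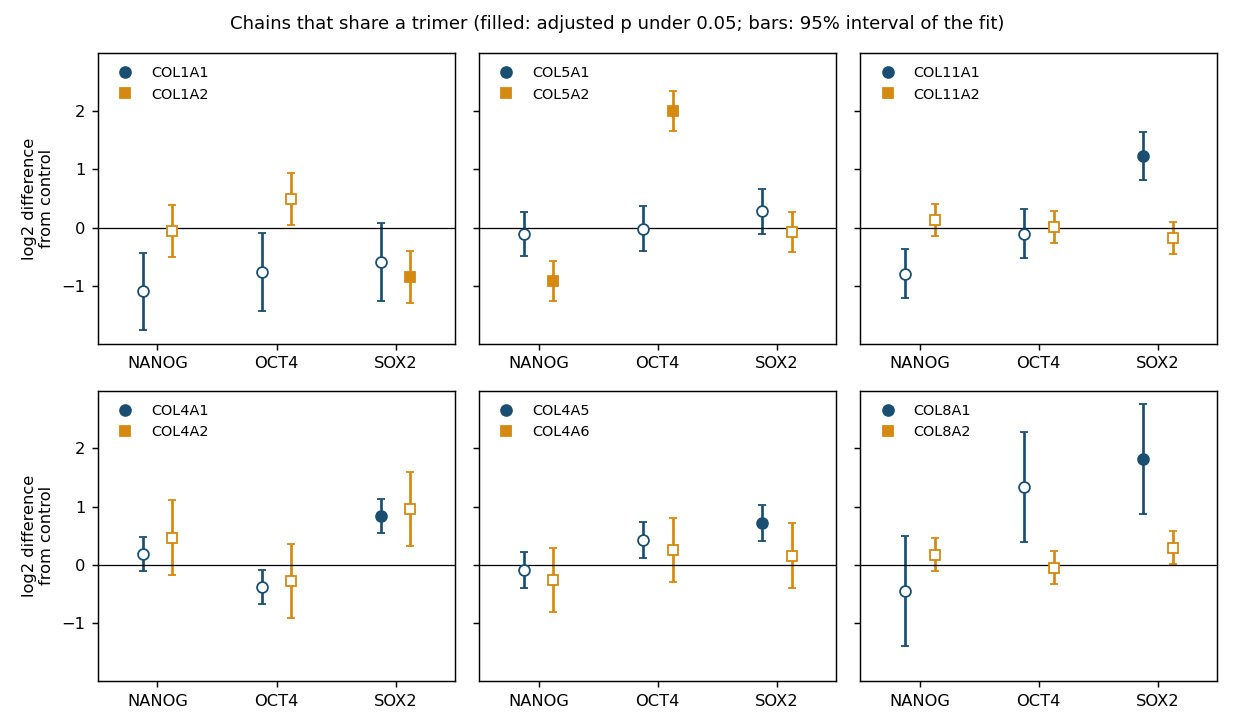
Log2 difference with its 95% interval for collagen chains and their partner chains, in each factor-labelled group against control; filled points passed the test. COL5A2 at 2.00 in OCT4-labelled cells stands beside COL5A1, which passed no comparison.

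Type I collagen, the main fibril former of connective tissue, is built from COL1A1 and COL1A2. COL1A2 read 450 and 434 in NANOG-labelled cells, 522 and 753 in OCT4-labelled cells, 293 and 255 in SOX2-labelled cells, and 416 and 503 in control cells. The SOX2 arrays were the 2 lowest and the OCT4 arrays the 2 highest. OCT4 against SOX2 gave a log2 difference of 1.34 (SE 0.20, 2.53-fold, adjusted p = 0.00701), kept with any 1 array left out. With only the OCT4 and SOX2 arrays in the fit it did not pass (adjusted p = 0.0628). The log2 difference was -0.84 for SOX2 against control (adjusted p = 0.0312), and NANOG against SOX2 gave 0.79 (adjusted p = 0.0273). With only the SOX2 and control arrays in the fit, SOX2 against control did not pass (adjusted p = 0.0935). Under array quality weights, neither SOX2 against control (0.0973) nor NANOG against SOX2 (0.053) passed. The NANOG against SOX2 call ended without either NANOG array or SOX2 replicate 2 (adjusted p up to 0.168), and SOX2 against control without any 1 of those or of the control arrays (up to 0.147). A second COL1A2 probe of similar brightness gave -0.24 for SOX2 against control (adjusted p over all probes 0.55) and 0.31 for OCT4 against SOX2 (0.468). COL1A1 read 410 and 450 in NANOG-labelled cells, 401 and 705 in OCT4-labelled cells, 540 and 645 in SOX2-labelled cells, and 713 and 1063 in control cells. All 6 factor-labelled arrays read below both control arrays, yet 0 comparisons passed (NANOG against control -1.10, adjusted p = 0.0879).

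COL11A1, a chain of the minor fibrillar collagen of cartilage, read 107 and 116 in NANOG-labelled cells, 147 and 159 in OCT4-labelled cells, 323 and 321 in SOX2-labelled cells, and 140 and 188 in control cells. Both SOX2 arrays were above all others, and both NANOG arrays were below 123.7. Where both arrays of a group lay below that filter intensity, the group gives only a bound, and the fold is written as at least so many. SOX2 against control gave 1.23 (SE 0.18, 2.34-fold, adjusted p = 0.00625), and SOX2-labelled cells read at least 3.43-fold above NANOG-labelled cells after background correction (adjusted p = 0.000324). Without that correction the log2 difference of NANOG against SOX2 was -1.53, a smaller ratio, because uncorrected intensities include the background. Both calls were kept with any 1 array left out. With only the SOX2 and control arrays in the fit, SOX2 against control no longer passed (adjusted p = 0.0695). OCT4 against SOX2 gave -1.34 (adjusted p = 0.00541), and -1.26 without OCT4 replicate 1 (adjusted p = 0.0523). A second COL11A1 probe past the filter gave 0.26 for SOX2 against control (adjusted p over all probes 0.258), and another 2 did not pass the filter. Its partners stayed near the filter intensity: COL11A2 read 125 and 128 in NANOG-labelled cells, 118 and 121 in OCT4-labelled cells, 111 and 109 in SOX2-labelled cells, and 126 and 113 in control cells. COL2A1, the cartilage fibril chain, read 128 and 129 in NANOG-labelled cells, 141 and 114 in OCT4-labelled cells, 108 and 119 in SOX2-labelled cells, and 125 and 118 in control cells. Neither passed a comparison. The remaining fibrillar genes, COL3A1 (105 to 146 over the 8 arrays) and COL27A1 (130 to 172), passed none either. At an unadjusted p under 0.05, COL3A1 passed 2, NANOG against OCT4 and OCT4 against SOX2, and COL27A1 passed 0. Only the OCT4 arrays of COL3A1 exceeded 123.7 (125.5 and 146.3), so a higher OCT4 reading was a condition of its being tested. Those 2 are a description, not support for a difference.

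**Figure D4:**
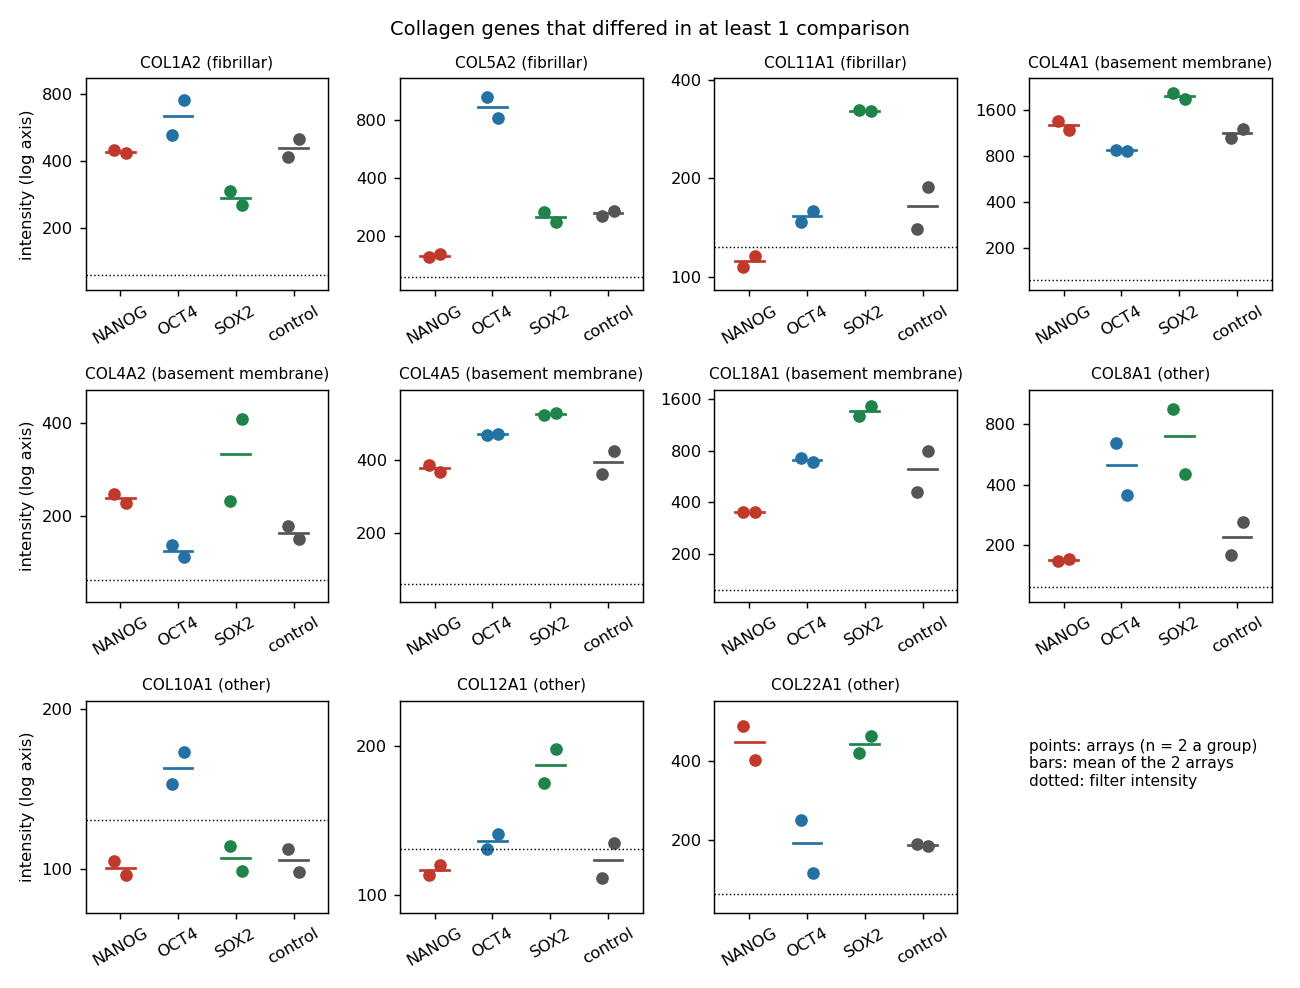
Deposited intensity (log axis) on each of the 8 arrays for the collagen genes that passed at least 1 comparison, by group, with 1 point per array, a bar at the mean of the 2 arrays and a dotted line at the filter intensity of 123.7. COL11A1 reads 323 and 321 in SOX2-labelled cells, and COL5A2 reads 1047 and 814 in OCT4-labelled cells.

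Among the 16 measured genes of the other classes, SOX2-labelled cells had 3 higher than control (COL8A1, COL12A1 and COL22A1) and 0 lower, with a median of 0.10. Of all genes, 6.09% were higher there and 5.03% lower. NANOG-labelled cells had 1 higher (COL22A1), beside 2.79% of all genes. OCT4-labelled cells had 0 called and 2 at an unadjusted p under 0.05, beside 7.59% of all genes.

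COL8A1, a short chain that forms hexagonal lattices under corneal and vascular endothelium, read 168 and 172 in NANOG-labelled cells, 649 and 358 in OCT4-labelled cells, 954 and 452 in SOX2-labelled cells, and 179 and 262 in control cells. The OCT4 and SOX2 arrays all lay above the control arrays and overlapped each other, and the NANOG arrays were the 2 lowest. SOX2 against control gave 1.82 (SE 0.41, 3.52-fold, adjusted p = 0.0291), NANOG against SOX2 gave -2.26 (adjusted p = 0.00767) and NANOG against OCT4 gave -1.78 (adjusted p = 0.039). OCT4 against control, at 1.33, did not pass (adjusted p = 0.392). Leaving out any 1 control or NANOG array ended the SOX2 against control call (adjusted p up to 0.187), and either NANOG array ended NANOG against SOX2 (up to 0.0745). NANOG against OCT4 was lost without any 1 control, NANOG or OCT4 array (up to 0.253). With only the SOX2 and control arrays in the fit, SOX2 against control did not pass (adjusted p = 0.113). Both further COL8A1 probes pointed the same way: SOX2 against control gave 1.10 (adjusted p over all probes 0.0237) and 0.69 (0.0378). Its partner COL8A2 read 166 and 163 in NANOG-labelled cells, 155 and 140 in OCT4-labelled cells, 167 and 184 in SOX2-labelled cells, and 152 and 149 in control cells, and passed no comparison.

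COL12A1, a chain that decorates type I fibrils, read 110 and 115 in NANOG-labelled cells, 124 and 133 in OCT4-labelled cells, 168 and 198 in SOX2-labelled cells, and 108 and 127 in control cells. The SOX2 arrays were the 2 highest. SOX2 against control gave 0.90 (SE 0.16, adjusted p = 0.0116), SOX2-labelled cells read at least 1.72-fold above NANOG-labelled cells after background correction (adjusted p = 0.00434; log2 difference of NANOG against SOX2 -0.70 without that correction), and OCT4 against SOX2 gave -0.70 (adjusted p = 0.0372). SOX2 against control was lost without control replicate 1 (adjusted p = 0.0853), and NANOG against SOX2 without NANOG replicate 1 (0.0577). OCT4 against SOX2 was lost without any 1 NANOG or OCT4 array or SOX2 replicate 2 (up to 0.212). With only the 2 groups compared in the fit, SOX2 against control (adjusted p = 0.0996) and OCT4 against SOX2 (0.121) did not pass. A second, dim COL12A1 probe pointed the other way for SOX2 against control (-0.31, adjusted p over all probes 0.351), so the 2 probes disagree.

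**Figure D5:**
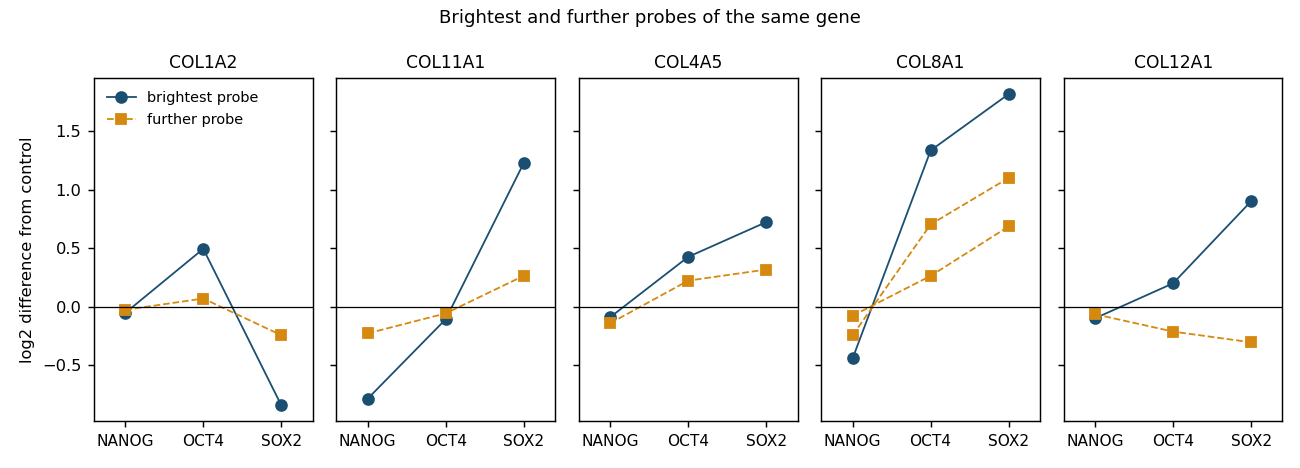
Log2 difference from control in NANOG-, OCT4- and SOX2-labelled cells for each probe past the filter (circles: brightest probe; squares: further probes) of 5 collagen genes that passed a comparison. In SOX2-labelled cells the 3 COL8A1 probes lie at 1.82, 1.10 and 0.69, whereas the 2 COL12A1 probes lie at 0.90 and -0.31.

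COL22A1, a fibril-associated chain of tissue junctions such as that of muscle and tendon, read 547 and 405 in NANOG-labelled cells, 239 and 150 in OCT4-labelled cells, 431 and 498 in SOX2-labelled cells, and 193 and 190 in control cells. It was the 1 collagen gene higher than control in NANOG-labelled cells (1.52, SE 0.27, 2.86-fold, adjusted p = 0.0229), and it was also higher in SOX2-labelled cells (1.49, adjusted p = 0.0125). NANOG and SOX2 overlapped (0.02), as did OCT4 and control (-0.04), and neither pair passed the test. NANOG against OCT4 gave 1.56 (adjusted p = 0.0115) and OCT4 against SOX2 gave -1.53 (adjusted p = 0.0144). With only the OCT4 and SOX2 arrays in the fit, OCT4 against SOX2 did not pass (adjusted p = 0.0842). Under array quality weights, neither OCT4 against SOX2 (0.0529) nor SOX2 against control (0.055) passed. Leaving out any 1 NANOG or control array ended NANOG against control (adjusted p up to 0.276), and either control array ended SOX2 against control (up to 0.0824). NANOG against OCT4 was lost without either NANOG array or OCT4 replicate 2 (up to 0.146), and OCT4 against SOX2 without OCT4 replicate 2 (0.0592).

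COL10A1, the chain of hypertrophic cartilage, read 104 and 97.5 in NANOG-labelled cells, 145 and 166 in OCT4-labelled cells, 111 and 99.4 in SOX2-labelled cells, and 109 and 98.9 in control cells. Only the OCT4 arrays exceeded 123.7, so the gene entered the test through them alone and a higher OCT4 reading was a condition of being tested. Its 2 calls are in the counts given for NANOG against OCT4 and OCT4 against SOX2. COL10A1 is also among the 10 genes called by the F test (adjusted p = 0.0116). All of these are a description, not support for a difference. After background correction, OCT4-labelled cells read at least 1.38-fold above each of the other groups. The adjusted p was 0.00873 against NANOG, 0.0164 against SOX2 and 0.0815, which did not pass, against control. Without that correction the log2 difference was -0.62 for NANOG against OCT4 and 0.56 for OCT4 against SOX2. With only the OCT4 and SOX2 arrays in the fit, the call against SOX2 did not pass (adjusted p = 0.0935). The call against NANOG ended without either NANOG array or OCT4 replicate 2 (adjusted p up to 0.11), and that against SOX2 without either OCT4 array (up to 0.117).

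The remaining members past the filter were called in 0 comparisons, though at an unadjusted p under 0.05 COL9A1 passed 2 and COL14A1 passed 1. Among beaded-filament chains, COL6A1 read 152 to 242 over the 8 arrays, COL6A2 143 to 242, COL6A3 114 to 156 and COL6A5 119 to 129. Among fibril-associated chains, COL9A1 read 122 to 178, COL9A3 124 to 164, COL14A1 103 to 137, COL16A1 151 to 170 and COL20A1 117 to 134. The transmembrane chain COL23A1 read 157 to 222, and COL26A1 read 152 to 227. Many of these ranges sit close to 123.7, where little signal stood above background.

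Genes that modify collagen were called in both directions. Of 16 measured genes of collagen modification and folding, SOX2-labelled cells had 1 higher than control and 2 lower, beside 6.09% and 5.03% of all genes. The higher one was the lysyl hydroxylase PLOD3 (0.79, adjusted p = 0.0107). The 2 lower were the prolyl 3-hydroxylase P3H2 (-1.43, adjusted p = 0.00832) and the prolyl 4-hydroxylase subunit P4HA1 (-0.63, adjusted p = 0.0291). P4HA1 was higher in NANOG-labelled than in SOX2-labelled cells (1.16, adjusted p = 0.00124), and P3H2 was lower in NANOG-labelled cells than in control (-1.05, adjusted p = 0.0485). The P3H2 call in SOX2-labelled cells and the P4HA1 call between NANOG and SOX2 were kept with any 1 array left out. With only the SOX2 and control arrays in the fit, P3H2 (adjusted p = 0.0863), PLOD3 (0.103) and P4HA1 no longer passed against control. The PLOD3 call ended without either control array (adjusted p up to 0.0579), P4HA1 in SOX2-labelled cells without any 1 control or NANOG array (up to 0.169), and P3H2 in NANOG-labelled cells without any 1 NANOG or OCT4 array or control replicate 2 (up to 0.378). OCT4-labelled cells had 0 of 16 called against control in limma, and 4 at an unadjusted p under 0.05, beside 7.59% of all genes.

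Among 11 measured collagen-binding matrix genes, SOX2-labelled cells had 3 higher than control and 0 lower, beside 6.09% and 5.03% of all genes. FBN2, a microfibril protein, read 3076 and 2929 in SOX2-labelled cells and 354 and 577 in control cells (log2 difference 2.86, adjusted p = 0.000717). TGFBI, a collagen-binding adhesion protein (1.14, adjusted p = 0.00221), and THBS1, or thrombospondin (1.02, adjusted p = 0.0069), were the others. All 3 calls were kept with any 1 array left out. With only the SOX2 and control arrays in the fit, THBS1 no longer passed (adjusted p = 0.0814). NANOG-labelled cells also had 3 higher and 0 lower, beside 2.79% and 0.885% of all genes. The 3 were led by TNC, the matrix protein tenascin-C, at 882 and 865 against 230 and 199 in control cells (2.28, adjusted p = 0.0111). TNC was no longer called without control replicate 2 or either NANOG array (adjusted p up to 0.157). The other calls, FBN2 (1.29) and TGFBI (0.69), were lost without any 1 NANOG or OCT4 array or control replicate 1, and TGFBI without control replicate 2 too. OCT4-labelled cells had 0 called and 2 at an unadjusted p under 0.05, beside 7.59% of all genes.

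Of 8 measured collagen receptors, 1 was called, beside 3.67% of all genes in NANOG against control: ADGRG6, an adhesion receptor that binds type IV collagen. It read 366 and 346 in NANOG-labelled cells, 146 and 149 in OCT4-labelled cells, 134 and 144 in SOX2-labelled cells, and 149 and 127 in control cells. The NANOG arrays were the 2 highest (1.72 against control, adjusted p = 0.000519), and this call was kept under every omission and setting. Of 8 measured collagen-degrading enzymes and their inhibitors, 1 was called against control, MMP16 in NANOG-labelled cells. It read lower there (-0.78, adjusted p = 0.0298), beside 0.885% of all genes. That call was lost without control replicate 2 or either NANOG array. MMP16 was also lower in NANOG-labelled than in SOX2-labelled cells (-0.99, adjusted p = 0.00334), beside 8.92% of all genes. This call was kept under every omission and setting. The other calls of the list between factors, of MMP16, TIMP4 and MMP9, each ended with at least 1 array left out. Of 9 measured genes of processing and crosslinking, 0 were called against control in limma, and at an unadjusted p under 0.05 there were 2 for NANOG, 1 for OCT4 and 3 for SOX2, beside 16.8%, 7.59% and 26.6% of all genes. Between NANOG and OCT4, 1 was lower, the crosslinking enzyme LOX (-1.05, adjusted p = 0.0258), beside 2.83% of all genes. It was lost without either NANOG array or OCT4 replicate 2.

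Markers of cell state moved beside the collagen values, and their part in the collagen results was not tested. All 13 pluripotent-cell markers with a probe passed the filter. Their summed intensity was 36878 to 38003 in NANOG-labelled cells, 35748 to 35759 in OCT4-labelled cells, 31107 to 35180 in SOX2-labelled cells and 40243 to 40690 in control cells. In SOX2-labelled cells 4 were called lower than control (TERF1, DNMT3B, ZFP42 and SALL4) and 0 higher, beside 5.03% and 6.09% of all genes. TERF1, a telomere-binding protein (-2.51, adjusted p = 0.000242), was kept under every omission and setting. With only the SOX2 and control arrays in the fit, DNMT3B, ZFP42 and SALL4 did not pass. DNMT3B was lost without control replicate 1 (adjusted p = 0.117). SALL4 was lost without any 1 control or NANOG array or SOX2 replicate 2 (up to 0.119), and ZFP42 without any array but SOX2 replicate 1 (up to 0.167). In NANOG-labelled cells 1 was lower than control, the surface protein PODXL (-1.03, adjusted p = 0.00763), beside 0.885% of all genes. That call was lost without control replicate 2 or either NANOG array. Of 15 fibroblast and mesenchymal markers, 10 passed the filter. They summed to 12255 to 12506 in NANOG-labelled cells, 8931 to 9868 in OCT4-labelled cells, 12608 to 14541 in SOX2-labelled cells and 7554 to 8973 in control cells. The sum includes VIM, the intermediate filament vimentin, which stem cells also make. VIM read 9018 and 10170 in SOX2-labelled cells, most of the sum there, and 3074 and 4568 in control cells (1.36, adjusted p = 0.00371). With only the SOX2 and control arrays in the fit, VIM did not pass (adjusted p = 0.0581). Over the 10 markers the median log2 difference from control was -0.0152 for SOX2, -0.0508 for NANOG and -0.0168 for OCT4. The higher sums therefore do not describe the markers as a set. Against control, 1 of the 10 was higher in OCT4-labelled cells, beside 0.217% of all genes, and 0 were called in NANOG-labelled cells. In SOX2-labelled cells 3 of the 10 were higher and 1 lower, beside 6.09% and 5.03% of all genes. The lower one was S100A4, a calcium-binding protein, at 198 and 253 in SOX2-labelled cells and 969 and 860 in control cells (-2.26, adjusted p = 0.000717), kept under every omission and setting. The higher calls of TWIST1 (0.65) and ACTA2 (0.55) in SOX2-labelled cells were lost without any 1 NANOG or control array. TWIST1 was also lost without SOX2 replicate 2 and ACTA2 without either OCT4 array (adjusted p up to 0.163 for TWIST1 and 0.205 for ACTA2). Neither TWIST1 nor ACTA2 passed with only the SOX2 and control arrays in the fit. PDGFRA, PRRX1, LUM, POSTN and FAP did not pass the filter. TWIST1, a mesenchymal transcription factor, was higher in OCT4-labelled cells than in control (1.22, adjusted p = 0.0171). That call ended without any 1 control, NANOG or OCT4 array (adjusted p up to 0.211). The endothelial markers PECAM1, CDH5, VWF and EMCN, the endoderm markers SOX17, GATA4, GATA6 and FOXA2, and all 5 trophectoderm markers did not pass the filter. Of the other endothelial (4), endoderm (3) and neural markers (4 of 7) that did, 0 were called against control in limma. At an unadjusted p under 0.05 the endothelial markers gave 2 for NANOG, 1 for OCT4 and 0 for SOX2, the endoderm markers 0, 0 and 1, and the neural markers 1, 0 and 1, beside the same shares of all genes as above.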

How the data were processed

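The values are the authors' processed probe intensity values, a linear brightness deposited for 47323 probes on 8 arrays. After sorting, the arrays differed by no more than 2.3, as after quantile normalization; the labels do not name the authors' tool. A table of signals before normalization has 16 columns whose names match no sample, and they were not used, so detection p-values could not serve as a filter. In limma 3.58.1 under R 4.3.3, intensities were corrected by normexp with an offset of 50 and taken to log2, so fold changes include that offset and understate changes of dim probes. Probes above 123.7 on at least 2 arrays were kept. The brightest probe stood for a gene, which gave 12436 genes. Names came from the platform annotation, of which 30113 probes had 1 symbol, 8 several and 17202 none, and 30074 symbols matched RefSeq by gene number. All 8 arrays entered 1 fit (lmFit, eBayes) with a mean per group, 4 residual and 4.37 prior degrees of freedom, two-sided tests, and Benjamini-Hochberg adjustment over all genes within each comparison; called means an adjusted p under 0.05. The code was tested on simulated data. Only 2 arrays per group limit the precision, and read depth does not apply to arrays. No pairing of replicates was assumed. Alternatives were each array left out, array quality weights, a replicate block, only the 2 groups compared, other filters, no background correction and the mean of a gene's probes. Collagen members, partner chains and other gene lists were chosen with earlier results of these data known. Genes described with values on every array are those called in at least 1 comparison or the F test and their partner chains, and up to 4 called genes of each other list are named per comparison.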

Additional observations from a re-analysis of the deposited data

Results flagged for a closer look

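In 8 cases a collagen gene lay above both control arrays on both arrays of one factor-labelled group and below both control arrays on both arrays of another, with the 2 groups also called different from each other in limma. NANOG against SOX2 gave COL8A1 (log2 difference -2.26) and COL18A1 (-2.10), each lower in NANOG-labelled cells. It also gave COL11A1, whose fitted -2.02 is no exact size because both NANOG arrays read below the filter intensity, and SOX2-labelled cells read at least 3.43-fold higher after background correction. NANOG against OCT4 gave COL5A2 (-2.91) and COL8A1 (-1.78), both lower in NANOG-labelled cells. OCT4 against SOX2 gave COL1A2 (1.34), higher in OCT4-labelled cells, and COL4A1 (-1.22) and COL4A2 (-1.23), lower there. These cases were sought only among the called collagen genes, and the share of all genes with such a pattern was not computed. They are a description and do not show a trait particular to collagen genes. With 2 arrays in a group, no array could be tested as an outlier within its group.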

How the results depend on the processing

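The alternatives were run for the 11 collagen genes called in at least 1 comparison. No called difference of these genes changed sign under any of them, and 14 of their uncalled differences did, 13 of them when 1 array was left out, with these ranges. NANOG against control gave -0.20 to 0.042 for COL10A1, -0.28 to 0.082 for COL12A1, -0.21 to 0.097 for COL1A2 and -0.26 to 0.078 for COL4A5. OCT4 against control gave -0.39 to 0.18 for COL11A1, -0.18 to 0.67 for COL18A1 and -0.48 to 0.40 for COL22A1. SOX2 against control gave -0.11 to 0.15 for COL10A1 and -0.17 to 0.022 for COL5A2. NANOG against SOX2 gave -0.23 to 0.029 for COL10A1, -0.21 to 0.26 for COL22A1 and -0.997 to 0.027 for COL4A2. OCT4 against SOX2 gave -1.06 to 0.095 for COL8A1. With the mean of all filtered probes, OCT4 against control gave -0.0073 for COL12A1. Of the 34 calls, 6 were kept under every alternative: COL4A1 for OCT4 against SOX2, COL5A2 for OCT4 against control, NANOG against OCT4 and OCT4 against SOX2, and COL11A1 and COL18A1 for NANOG against SOX2. The filter on all 8 arrays ended 0 of the calls it could test, and it left out COL10A1, COL11A1 and COL12A1. With array quality weights, the counts were 5 for NANOG against control, 2 for OCT4 against control, 5 for SOX2 against control and 14 for NANOG against OCT4. With only the 2 groups in the fit, they were 6 for NANOG against control, 1 for SOX2 against control, 14 for NANOG against OCT4 and 4 for OCT4 against SOX2; that fit has fewer arrays behind its spread. Leaving out 1 array gave 0 to 6 calls for NANOG against control, 1 to 2 for OCT4 against control, 2 to 15 for SOX2 against control, 3 to 15 for NANOG against SOX2, 1 to 13 for NANOG against OCT4, 4 to 16 for OCT4 against SOX2 and 5 to 19 in the F test. Without either SOX2 array, the pooled spread no longer holds the gap between the SOX2 arrays. A lone array is then assumed to vary like the other groups. With the replicate number as a block, there were 4 calls for NANOG against control, 1 for OCT4 against control, 8 for SOX2 against control, 8 for NANOG against SOX2, 7 for NANOG against OCT4, 8 for OCT4 against SOX2 and 11 in the F test. That block ended the calls of COL4A1 for NANOG against OCT4 (adjusted p = 0.0546) and COL4A2 for OCT4 against SOX2 (0.0548). The deviations of same-numbered replicates correlated at 0.386 between control and OCT4, 0.136 between NANOG and SOX2 and -0.189 to 0.0154 between the other groups, so the numbers were not taken to pair the samples. Over all genes, leaving out 1 array gave 335 to 3527 calls for SOX2 against control, where all 8 arrays gave 1382. The causes of these changes were otherwise not tested. Signal near background limits the 11 genes that were not above the filter intensity on every array.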

Other observations

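Replicate arrays of a group differed most for a few collagen genes. COL7A1, the anchoring fibril chain, read 760 and 682 in NANOG-labelled cells, 768 and 389 in OCT4-labelled cells, 762 and 1290 in SOX2-labelled cells, and 804 and 565 in control cells. Its OCT4 arrays were 1.07 log2 units apart, the widest gap of that group, and no comparison passed. COL8A1 had the widest gap between SOX2 arrays (1.15), COL18A1 that between control arrays (0.85), and COL22A1 that between NANOG arrays (0.475). Gaps over 0.5 occurred in 0 of 31 measured collagen genes for NANOG, 7 for OCT4, 9 for SOX2 and 5 for control.

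Probes of genes that most cells express can also be dim on this platform. PPIB, a collagen-folding isomerase of the endoplasmic reticulum, read 107 to 117 over the 8 arrays, and the 3 probes of FN1, or fibronectin, read 92.4 to 125, so neither gene was tested.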
